A study of Mus musculus with 12 samples.

Results

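The mitochondrial Slc25 carriers are membrane proteins that move metabolites, nucleotides, cofactors and ions across the inner mitochondrial membrane, with a few members placed in peroxisomes or the outer membrane. Members were set by name: all genes called Slc25a followed by a number in both deposited input tables. This gave 47 of 22564 genes, and the family was chosen with earlier results of these data known. Livers of male C57BL/6 mice aged 8 weeks were used, either wild type or lacking Mettl3 in the liver (liver-specific knockout, cKO). Mettl3 is the methyltransferase that places N6-methyladenosine (m6A) on mRNA. The Cre driver and the deleted part of Mettl3 are not given in the labels used here. For each genotype 1 input library (RNA without precipitation) and 1 list of m6A peaks (from RNA bound by an anti-m6A antibody) could be tied to a genotype. They are named control, read here as wild type, and case, read as cKO. The labels do not state this reading, so each is called the control or the case library. With 1 library per genotype there is no replicate check: every difference compares these libraries, and no p-value can be given.

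In hepatocytes these carriers link the mitochondrial matrix to the cytosol for the urea cycle, the malate-aspartate shuttle, fatty acid oxidation, fat synthesis from citrate and ATP export. The carriers share one fold, made of repeated units of transmembrane helices, and are encoded in the nucleus. m6A is placed mostly in a short consensus whose commonest core is GGAC, and is known to influence splicing, stability and translation of the marked transcript.

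Levels are FPKM (fragments per transcript length, on the authors' scale between libraries, as deposited), and a difference is that of log2(FPKM + 1), case minus control. The call of higher or lower needs a difference of at least 1, which is 2-fold on that scale and understates low genes. Fragment numbers were recovered from a deposited count-like column, and intervals are 95% exact intervals of counting error only. The control input held 1737350 fragments and the case input 3564807, a ratio of 2.05. The authors' scale does not equalise these totals: a case fragment counts 0.854 times a control fragment in the deposited column. Fragment ratios are given on that scale, and each is 1.67 times lower when the fragment totals outside the mitochondrial chromosome are made equal. For Mettl3 itself, 12 control and 17 case fragments (3.44 and 2.91 FPKM) gave a ratio of 1.21 (interval 0.545 to 2.78) on the authors' scale and 0.726 (interval 0.327 to 1.67) with equal fragment totals. Both intervals hold equality, and as the deleted part is not given here, it does not check the labels. Of 8 hepatocyte markers 7 were higher in the case input, with summed levels of 13422 and 28127 FPKM, and Alb, the albumin gene, was within 2-fold. With FPKM scaled to equal totals outside the mitochondrial chromosome, 4 of the 8 were higher. Over all compared genes the shares higher were 23.6% as deposited and 8.01% on that scale. As deposited, the share was 54.6% among genes with a mean of at least 20 FPKM. All 7 measured Kupffer cell markers and all 6 sinusoidal endothelial markers were lower in the case input, with summed levels of 480 and 10.5 FPKM for the Kupffer cell list and 221 and 21.5 FPKM for the endothelial list, in control and case. They all stayed lower on the equal-totals scale, where 20.9% of all compared genes were lower, against 13.2% as deposited. None of these markers was listed at 0, but Csf1r, the macrophage growth factor receptor, was under 1 fragment in the case input. The part that cell makeup plays in the differences below was not tested. In a bulk library, fewer cells of a type and less RNA per cell cannot be told apart.

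Sequence around the gene start is shown for 3 carriers, because these are the members with a promoter window in which an m6A peak of their own lay. Windows reach from 250 bases before to 50 bases after the RefSeq gene start (RefSeq, GRCm38.p6) and were matched by symbol for 36 of the 47 members. Capitals mark the bases inside a listed peak. Slc25a20 (chr9:108661886-108662185, plus strand) carried a peak across its start in both lists. In Slc25a23 (chr17:57059814-57060113, minus strand) a control-list peak began at the start base of this window and ran into the gene. In Slc25a34 (chr4:141623785-141624084, minus strand) a case-list peak did so. A second Slc25a23 window has its start at base 57059842, inside the same peak. By the whole-gene positions used below, these peaks are centred 62 and 81.5 bases from the 5′ end of the gene, so the starts differ between the 2 references.
Slc25a20: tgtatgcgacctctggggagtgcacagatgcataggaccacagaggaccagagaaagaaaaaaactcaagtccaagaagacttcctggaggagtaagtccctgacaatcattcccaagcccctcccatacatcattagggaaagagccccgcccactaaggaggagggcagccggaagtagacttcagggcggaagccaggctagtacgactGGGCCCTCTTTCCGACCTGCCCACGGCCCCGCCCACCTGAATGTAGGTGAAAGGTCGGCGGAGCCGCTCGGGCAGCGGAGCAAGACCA
Slc25a23: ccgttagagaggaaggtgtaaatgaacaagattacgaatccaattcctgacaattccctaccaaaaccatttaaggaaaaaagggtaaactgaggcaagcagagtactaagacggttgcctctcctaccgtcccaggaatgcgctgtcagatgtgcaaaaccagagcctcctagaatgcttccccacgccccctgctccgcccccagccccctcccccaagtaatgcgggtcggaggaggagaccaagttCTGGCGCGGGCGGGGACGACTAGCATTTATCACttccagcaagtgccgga
Slc25a34: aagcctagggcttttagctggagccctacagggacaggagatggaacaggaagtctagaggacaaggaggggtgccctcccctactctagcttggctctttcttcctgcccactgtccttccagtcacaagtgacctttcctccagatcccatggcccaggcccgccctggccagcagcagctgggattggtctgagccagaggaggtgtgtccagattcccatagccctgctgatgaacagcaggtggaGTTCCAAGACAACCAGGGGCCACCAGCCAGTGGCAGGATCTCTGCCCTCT
The letters GGAC were searched on both strands. On the gene's own strand they occur inside the peak part of the Slc25a23 window 1 time, and 0 times in the peak parts of the other 2. They lie in the first 50 transcribed bases of 18.9% of all 32851 windows, and on either strand of the full window in 87.7%. A match is a description of letters, not of a methylated site.

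The family as a whole made up more of the case input. Summed over all 47 members, the carriers had 367 FPKM in the control and 1016 FPKM in the case input, or 0.314% and 0.483% of the FPKM of all genes outside the mitochondrial chromosome. By fragments the shares were 0.276% (3658 fragments) and 0.465% (11998 fragments). The same 5 members led in both libraries and held 56.4% and 55.6% of the family's FPKM. In the control input their order was Slc25a25, Slc25a5, Slc25a47, Slc25a3 and Slc25a39, from 48.5 to 34.0 FPKM. In the case input Slc25a47 came first, at 184 FPKM, followed by Slc25a25, Slc25a39, Slc25a3 and Slc25a5, the last at 75.7 FPKM.

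Of the 47 members, 31 had a mean of at least 1 FPKM over both libraries and were compared. Of these, 20 were called higher in the case library, 2 were lower and 9 lay within 2-fold. Among all 9584 genes compared, 23.6% were higher and 13.2% lower. The members' median difference was 1.19, against a median of 0.41 over all compared genes, so that the members lay 0.79 above this general shift. Abundant genes were called higher more often throughout. Among genes with a mean of at least 20 FPKM, 10 of 11 members and 54.6% of all genes were higher, between 5 and 20 FPKM 7 of 9 members and 31.6%, and between 1 and 5 FPKM 3 of 11 members and 13.1%.

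The count of members depended on how the 2 libraries were scaled. With FPKM scaled to equal totals outside the mitochondrial chromosome (called equal totals below), 6 members were higher and 2 lower, against 768 and 2003 of all compared genes (8.01% and 20.9%). With quantile normalization 10 members were higher and 2 lower, against 14.2% and 15.8% of all genes. Slc25a15, Slc25a22, Slc25a42, Slc25a47 and Slc25a51 stayed at least 2-fold higher in each of the 8 settings run, the deposited scale included. Slc25a4 and Slc25a36 were lower in each of the 7 settings that kept them. With equal fragment totals, the interval of the fragment ratio lay above 1 for 18 of the 20 members called higher, and it held equality for Slc25a3 and Slc25a11. Those 20 were called from the same 2 libraries, so this count is not independent of the call. Among all 31 compared members, 18 intervals lay above 1 and 5 below, at Slc25a4, Slc25a36, Slc25a37, Slc25a45 and Slc25a46. The same counts were not taken over all compared genes.

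**Figure D1:**
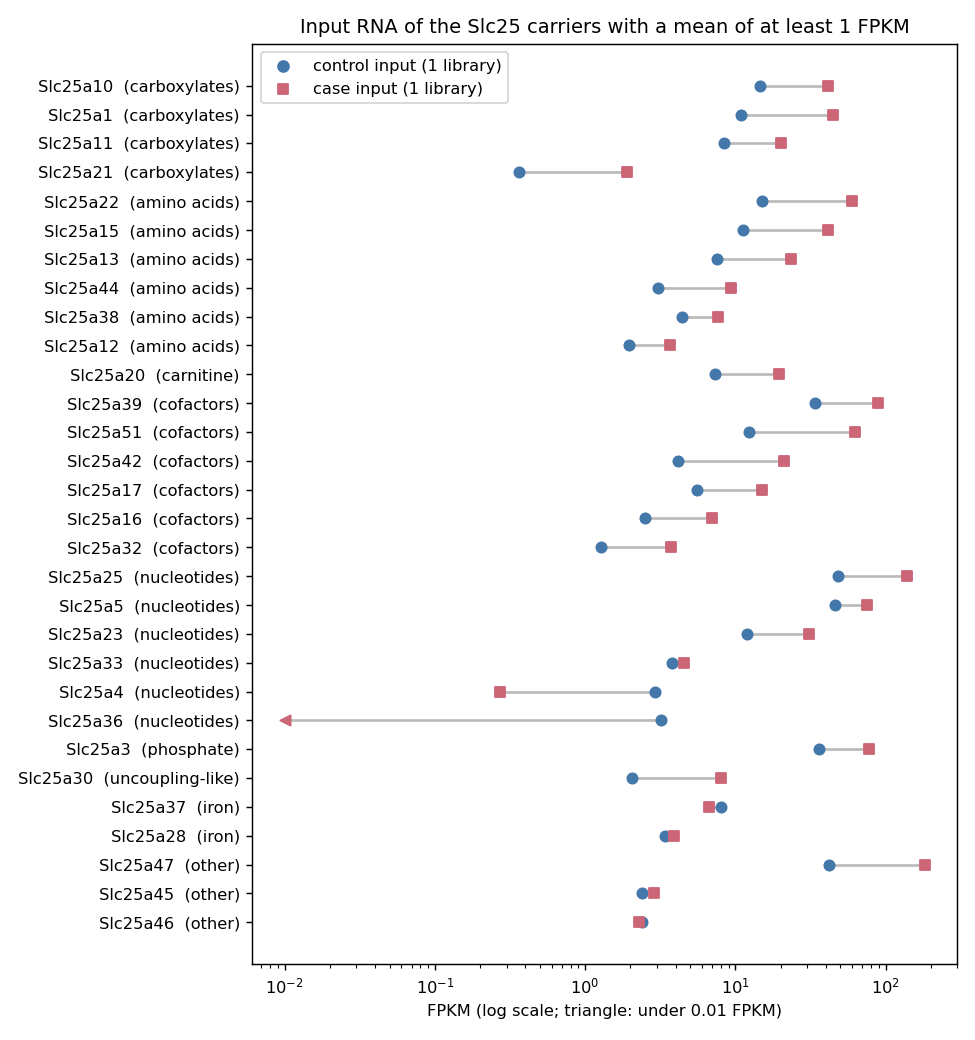
FPKM (log scale) of 30 of the 31 compared carriers in the control input (circles) and the case input (squares), 1 library each, with the transported group in brackets. The squares lie to the right of the circles except at Slc25a4, Slc25a36, Slc25a37 and Slc25a46, and Slc25a36 (triangle) is drawn at the left edge because its case value is under 0.01 FPKM.

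Carriers of carboxylates, which exchange the acids of the citric acid cycle, were higher in all 4 compared members. The filter left out Slc25a34 and Slc25a35 of this group. Slc25a34 had 9 control and 18 case fragments, and Slc25a35 had 8 and 0, so it went the other way. Slc25a1, the citrate carrier that supplies cytosolic acetyl-CoA for fat synthesis, had 10.8 FPKM in the control and 44.5 FPKM in the case input. Its 90 and 330 fragments gave a ratio of 3.13 (interval 2.47 to 4.00) on the authors' scale and 1.88 (interval 1.48 to 2.40) with equal fragment totals. Slc25a10, the dicarboxylate carrier that exchanges malate or succinate for phosphate, had 14.6 and 41.5 FPKM, from 133 and 462 fragments (ratio 2.97, interval 2.44 to 3.63). Slc25a11, the oxoglutarate-malate carrier of the malate-aspartate shuttle, had 8.34 and 20.04 FPKM, from 73 and 152 fragments (ratio 1.78, interval 1.34 to 2.38). With equal fragment totals its ratio was 1.07 (interval 0.802 to 1.43). Slc25a21, the oxodicarboxylate carrier, was low in both, at 0.363 and 1.89 FPKM from 5 and 27 fragments (ratio 4.61, interval 1.75 to 15.3), and it passed the filter through the case library. With FPKM at equal totals Slc25a1 alone of the 4 remained 2-fold higher, at a difference of 1.25. With equal fragment totals the ratio was instead past 2 for Slc25a21, at 2.77 (interval 1.05 to 9.20), and under 2 for Slc25a1.

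Among the amino acid carriers, 4 of 6 compared members were higher and none was lower on the deposited scale. With equal totals 2 were higher and 0 lower. Slc25a15, the ornithine carrier of the urea cycle, had 11.3 FPKM in the control and 41.5 FPKM in the case input, from 208 and 897 fragments. Its fragment ratio was 3.68 (interval 3.16 to 4.30), or 2.21 (interval 1.898 to 2.58) with equal fragment totals. Slc25a22, a glutamate carrier, had 15.1 and 60.0 FPKM, and its 113 and 630 fragments gave a ratio of 4.76 (interval 3.89 to 5.87). Slc25a13, citrin, the liver's main aspartate-glutamate carrier, had 7.60 and 23.4 FPKM, from 124 and 448 fragments (ratio 3.09, interval 2.52 to 3.80). Its paralogue Slc25a12, better known from muscle and brain, was within 2-fold at 1.96 and 3.68 FPKM. Slc25a44, linked to branched-chain amino acid import in mouse brown fat, had 3.08 and 9.35 FPKM, from 59 and 210 fragments (ratio 3.04, interval 2.27 to 4.13). Slc25a38, which serves glycine import for heme synthesis, was within 2-fold at 4.42 and 7.62 FPKM.

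Slc25a20, the carnitine-acylcarnitine carrier that brings fatty acids in for oxidation, had 7.32 FPKM in the control and 19.5 FPKM in the case input, from 67 and 209 fragments (ratio 2.66, interval 2.01 to 3.56). Its difference was 1.30 as deposited and 0.62 with equal totals, against a median of -0.15 for all genes on that scale.

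Carriers of cofactors were higher in 6 of 7 compared members on the deposited scale and in 2 with equal totals. Slc25a51, the mitochondrial NAD carrier, had 12.3 FPKM in the control and 62.6 FPKM in the case input, from 171 and 837 fragments (ratio 4.18, interval 3.54 to 4.96). That is a difference of 2.25, or 1.55 with equal totals. Slc25a42, which imports coenzyme A, had 4.17 and 21.1 FPKM, and its 58 and 348 fragments gave a ratio of 5.12 (interval 3.87 to 6.89). Slc25a39, the glutathione carrier, was more abundant and had 34.0 and 89.2 FPKM, from 276 and 815 fragments (ratio 2.52, interval 2.20 to 2.90). Its paralogue Slc25a40 stayed under the filter, at 0.148 and 0.757 FPKM. Slc25a17, a peroxisomal cofactor carrier, had 5.52 and 14.9 FPKM, from 47 and 149 fragments (ratio 2.71, interval 1.94 to 3.84). Slc25a16, linked to coenzyme A, had 2.49 and 6.98 FPKM, from 36 and 130 fragments (ratio 3.08, interval 2.12 to 4.59). The folate carrier Slc25a32 was near the limit of 2-fold, at 1.28 and 3.71 FPKM, from 20 and 68 fragments (ratio 2.90, interval 1.74 to 5.05).

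Among 6 compared nucleotide carriers, 2 were higher, 2 lower and 2 within 2-fold on the deposited scale. With FPKM at equal totals 0 were higher and 2 lower. Slc25a25 and Slc25a23 are calcium-regulated carriers that exchange ATP-magnesium for phosphate, and both were higher on the deposited scale. Their differences with FPKM at equal totals were 0.76 and 0.59. With equal fragment totals their ratios were 2.14 (interval 1.93 to 2.36) and 1.45 (interval 1.24 to 1.70), so Slc25a25 was past 2-fold by fragments. Slc25a25 had 48.5 FPKM in the control and 138 FPKM in the case input, with 486 and 2026 fragments (ratio 3.56, interval 3.22 to 3.94). Slc25a23 had 12.0 and 30.8 FPKM, with 214 and 605 fragments (ratio 2.41, interval 2.06 to 2.84). Slc25a5, the ADP/ATP exchanger of most tissues outside muscle, was within 2-fold, at 46.3 and 75.7 FPKM from 280 and 542 fragments (ratio 1.65, interval 1.43 to 1.92). Its difference of 0.70 became -0.03 with equal totals and -0.21 with quantile normalization. Slc25a33, a pyrimidine nucleotide carrier, had 3.80 and 4.56 FPKM.

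The 2 members lower in the case input were both nucleotide carriers of low level, which passed the filter through the control library. Slc25a4, the ADP/ATP exchanger of heart and muscle, had 25 control and 2 case fragments (2.94 and 0.270 FPKM), a fragment ratio of 0.0683 (interval 0.00784 to 0.274). Slc25a36, a pyrimidine nucleotide carrier, had 30 control fragments (3.18 FPKM) and was listed at 0.000405 FPKM, under 1 fragment, in the other library. Since 47 compared genes stood under 0.5 fragments in the case input with at least 20 in the control input, and 20 genes the other way round, no fold is given for it. Below the filter, Slc25a24, another calcium-regulated carrier, also had fewer fragments in the case input, 2 against 15, with a ratio of 0.114 (interval 0.0126 to 0.490). Slc25a4 and Slc25a5 are close copies, among which fragments could be split. The Kupffer cell, endothelial and stellate markers were also lower in the case input, and their part in these values was not tested.

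Slc25a3, which brings phosphate into the matrix for ATP synthesis, had 36.2 FPKM in the control and 77.7 FPKM in the case input, just past 2-fold at a difference of 1.08, with 0.36 at equal totals. Its 345 and 690 fragments gave a ratio of 1.71 (interval 1.499 to 1.95) on the authors' scale and 1.02 (interval 0.899 to 1.17) with equal fragment totals, so its call rests on the authors' scale. Of the carriers resembling uncoupling proteins, Slc25a30 had 2.06 and 8.02 FPKM, from 18 and 82 fragments (ratio 3.89, interval 2.32 to 6.89), while Slc25a14 and Slc25a27 were below the filter.

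Both mitoferrins, which bring iron into the matrix, lay within 2-fold. Slc25a37, the form known from developing red cells, had 155 control and 205 case fragments (7.96 and 6.69 FPKM), with a ratio of 1.13 (interval 0.912 to 1.40) on the authors' scale and 0.678 (interval 0.547 to 0.840) with equal fragment totals. Slc25a28, the form of other tissues, had 3.40 and 3.90 FPKM. Red cell markers were near the floor in both inputs, with 3 of 7 listed at 0 in each and summed levels of 4.99 and 10.6 FPKM, of which Alas2, the red-cell enzyme that starts heme synthesis, held 1.23 and 7.98.

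Slc25a47, a carrier known for its enrichment in liver, was the most abundant member of the case input. Levels were 42.1 FPKM in the control (338 fragments) and 184 FPKM in the case library (1728 fragments), and the fragment ratio was 4.37 (interval 3.88 to 4.92), or 2.62 (interval 2.33 to 2.95) with equal fragment totals. Slc25a46, an outer membrane protein of mitochondrial shape, was within 2-fold at 2.37 and 2.28 FPKM, and with equal fragment totals its ratio was 0.576 (interval 0.396 to 0.842). Slc25a45 had 2.38 and 2.86 FPKM, in a deposited locus of 709997 bases that spans neighbouring genes, which makes its value uncertain.

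**Figure D2:**
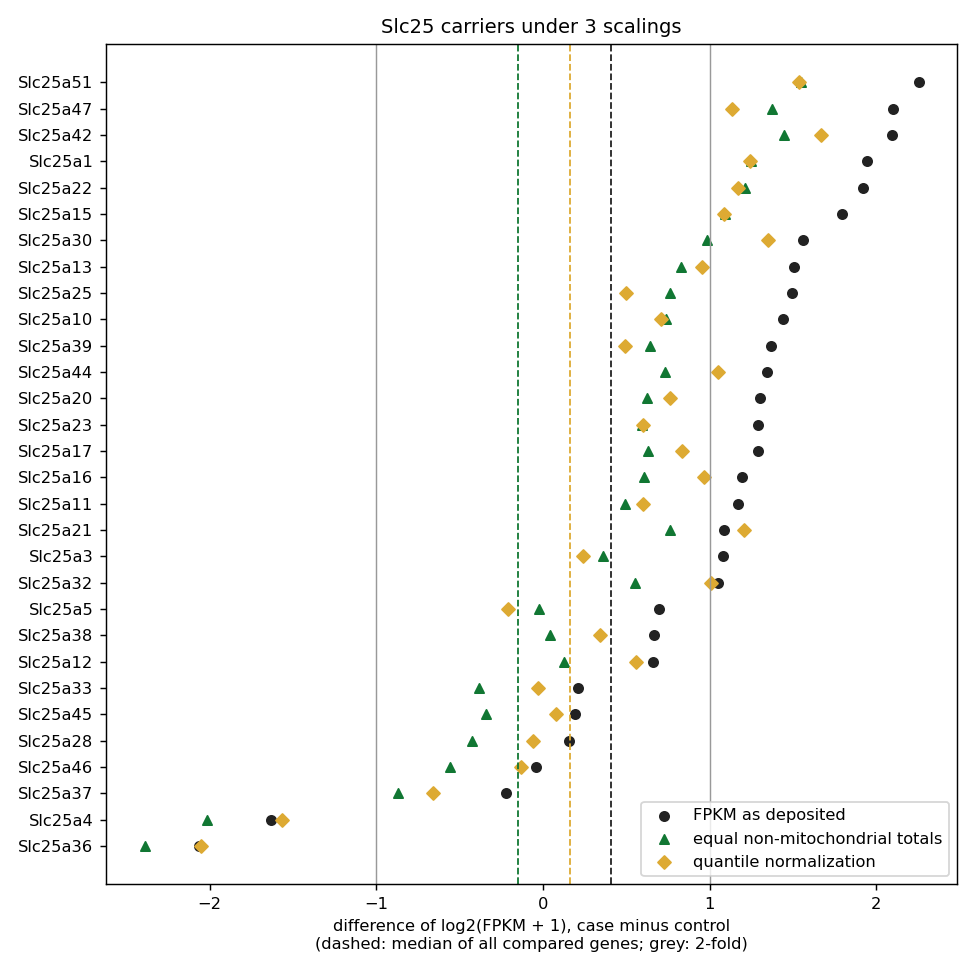
Difference of log2(FPKM + 1), case minus control, for 30 of the 31 compared carriers as deposited (circles), with equal totals (triangles) and with quantile normalization (diamonds), 1 library per genotype. Dashed lines mark the medians of all 9584 genes, 0.41, -0.15 and 0.16, and the upper 6 carriers lie right of the 2-fold line at 1 under all 3 scalings.

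The other 16 members had a mean under 1 FPKM. Slc25a18, Slc25a31, Slc25a41, Slc25a43 and Slc25a54 were listed at 0 in both inputs. The others were Slc25a2, Slc25a14, Slc25a24, Slc25a26, Slc25a27, Slc25a29, Slc25a34, Slc25a35, Slc25a40, Slc25a48 and Slc25a53, with control levels up to the 1.76 FPKM of Slc25a35, which had 8 fragments there and was listed at 0 in the case library. Slc25a48 had 9 and 28 fragments (ratio 2.66, interval 1.22 to 6.40), but with equal fragment totals its interval, 0.731 to 3.84, held equality. Slc25a26, the S-adenosylmethionine carrier, had 5 and 16 (ratio 2.79, interval 0.957 to 9.54), an interval that holds equality, so no difference was detectable at this depth. Without the filter, 20 of 42 members with any signal were higher and 3 lower, against 15.9% and 10.5% of 14651 genes.

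Genes that work with the carriers were read from lists chosen with earlier results of these data known. Of 23 compared enzymes that use the carried metabolites, 21 were called higher and 0 lower, with a median difference of 1.87, and 13 were higher with equal totals. Over all compared genes the shares called higher are 23.6% and 8.01%. The largest were in the urea cycle, supplied by Slc25a15 and Slc25a13: Cps1, which makes carbamoyl phosphate, had 63.5 and 533 FPKM, Asl, the argininosuccinate lyase, 36.5 and 209 FPKM, and Ass1, the argininosuccinate synthase, 124 and 694 FPKM. Alas1, the first enzyme of heme synthesis in liver, had 88.0 and 439 FPKM. Cpt2, which acts beside Slc25a20, was within 2-fold at 6.34 and 12.9 FPKM. Of 14 other mitochondrial transporters 8 were higher and 0 lower, and 2 were higher with equal totals. Sfxn1, a serine transporter, had 4.83 and 17.9 FPKM. Of 8 genes that import carriers into the membrane 4 were higher and 0 lower, and 1 was higher with equal totals. The largest difference was that of Timm10, a small chaperone of the intermembrane space, at 0.848 and 5.03 FPKM from 2 and 18 fragments. Timm10 and Timm9, its partner with 3 and 21 fragments, passed the filter through the case library. Tomm70a, the receptor for carrier precursors, had 3.25 and 11.5 FPKM.

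Relatives of the carriers that bear other names divided as well. Ucp2, an uncoupling protein relative, was called lower, with 623 control and 59 case fragments (62.4 and 10.5 FPKM). Mtch2, an outer membrane relative, had 9.39 and 33.2 FPKM, and Mtch1 had 8.92 and 14.1 FPKM. Ucp1 and Ucp3 were listed at 0 in both inputs. Ucp2 is known from macrophages, and the Kupffer cell markers were lower in the same library; their part in its level was not tested.

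The second comparison asked where the antibody enriched carrier RNA. Fold enrichments and false discovery rates are the authors' values per peak and are used within a list only. The control list held 48 peaks in 24 members, and the case list 26 peaks in 17 members, out of 17175 and 17277 peaks in all. Of the 31 compared carriers, 23 had a control-list peak, a share of 74.2% (interval 55.4 to 88.1%), beside 65.6% of all compared genes. A case-list peak was given to 14, or 45.2% (interval 27.3 to 64.0%), beside 65.4% of all compared genes. The interval for the control list holds the share of all genes, and that for the case list ends just under it. These intervals treat the carriers as independent draws, and the genes beside them were not matched to the carriers by input level. Whether the carriers differ from other genes in these shares was therefore not tested. Peaks were listed in both for 11 carriers and in the control list alone for 12. The case list alone held peaks of 3, and 5 had a peak in neither. In this order the shares are 35.5%, 38.7%, 9.68% and 16.1%, beside 49.2%, 16.4%, 16.2% and 18.2% of all compared genes.

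Peaks of the carriers leaned to the control list. More control than case peaks were listed for 19 of 31 compared members and more case peaks for 5, beside 34% and 31.8% of all compared genes. The input levels moved with this: among all genes called higher in the case library, 58.3% had more control peaks and 13.7% more case peaks, and among the 20 carriers higher there the numbers were 16 and 1. Of the 9 carriers within 2-fold, 3 had more control and 4 more case peaks, beside 30.8% and 32.3% of all genes within 2-fold. The part of the input level in the number of peaks called was not tested.

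**Figure D3:**
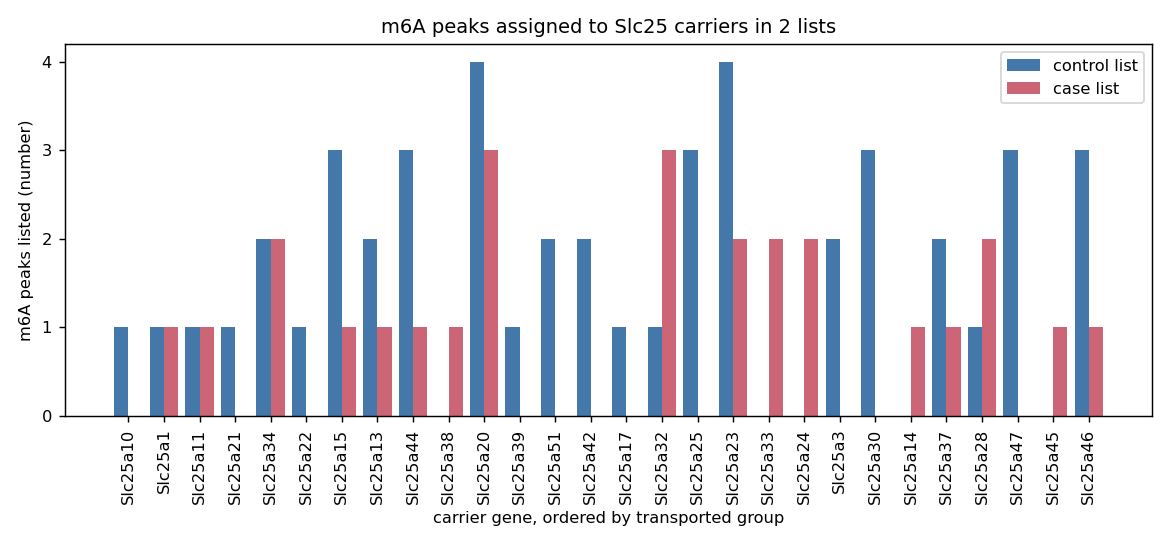
Number of m6A peaks listed for 28 of the 29 carriers with a peak, in the control list and the case list, ordered by transported group. Bars of the control list reach 4 at Slc25a20 and Slc25a23, and the case list reaches 3 at Slc25a20 and Slc25a32.

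Among the carriers called higher in the case input on the deposited scale, several had peaks in the control list alone. Slc25a47 had 3 control peaks and 0 case peaks, Slc25a25 3 and 0, Slc25a30 3 and 0, and Slc25a51, Slc25a42 and Slc25a3 2 and 0 each. Slc25a10, Slc25a17, Slc25a21, Slc25a22 and Slc25a39 had 1 and 0. The case list alone held peaks of Slc25a33 and Slc25a24 (2 each), and of Slc25a38, Slc25a45 and Slc25a14 (1 each). Slc25a24 and Slc25a14 lay below 1 FPKM in the input, and 1 of the Slc25a24 peaks was 2 bases long. Slc25a4, Slc25a5, Slc25a12, Slc25a16 and Slc25a36 were compared but had a peak in neither list.

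Within the control list, high fold enrichments of the family were 137 at Slc25a21 (chromosome 12, 56713634 to 56713874, mm10), 128 at Slc25a20 (chromosome 9, 108680087 to 108680204) and 111 at the 5′ end of Slc25a44 (chromosome 3, 88424728 to 88425119). Slc25a42 had 106 (chromosome 8, 70188981 to 70189299) and Slc25a51 had 98.3 (chromosome 4, 45404727 to 45404840). Slc25a34 followed with 53.2 (chromosome 4, 141620099 to 141620478) and Slc25a13 with 48.7 near its 3′ end (chromosome 6, 6041479 to 6042312). These peaks stood between the 68.9th and the 94.1st percentile of the list. In the control input Slc25a21 had only 5 fragments and Slc25a34 only 9 (0.363 and 0.638 FPKM), so their enrichments rest on an input near the floor. Over all its peaks the family sat lower, with a median fold enrichment of 18.1 against 28.5 in the whole control list.

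Within the case list the highest were 42.5 at Slc25a46, 10.8% along the gene, 33.7 at the 2-base peak of Slc25a24 (chromosome 3, 109156847 to 109156848) and 22.7 at the start of Slc25a20 (chromosome 9, 108662098 to 108662332). Slc25a34 had 18.5 at its start (chromosome 4, 141623785 to 141623834), Slc25a33 had 14.97 (chromosome 4, 149744319 to 149744697), Slc25a28 13.5 (chromosome 19, 43674476 to 43674541), Slc25a44 13.3 (chromosome 3, 88424728 to 88425141) and Slc25a14 12.9 (chromosome X, 48662016 to 48662215). In the case input Slc25a24, Slc25a34 and Slc25a14 had only 2, 18 and 3 fragments. The family's median was 8.18 against 14.95 in the whole list. Carrier peaks had median false discovery rates of 1.795% (control list) and 12.2% (case list), beside 1.66% and 12.3% over the whole lists.

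The lists met at 10 places in 8 carriers, by an overlap of at least 1 base. These are 10 of the 48 control peaks, or 20.8% (interval 10.5 to 35.0%), and 10 of the 26 case peaks, or 38.5% (interval 20.2 to 59.4%), beside 35.5% and 35.3% over the whole lists. Peaks of 1 gene share its transcript, so these intervals are too narrow. Slc25a1 had the same peak in both (chromosome 16, 17926030 to 17926103), and so did Slc25a20 at its start, the stretch in capitals above. At the 5′ end of Slc25a44 the peaks shared a start coordinate and were 392 and 414 bases long. In Slc25a11 (chromosome 11, 70644104 to 70644764 in the control list), Slc25a15 (chromosome 8, 22377208 to 22377981), Slc25a32 (chromosome 15, 39095400 to 39095810) and Slc25a37 (chromosome 14, 69244197 to 69245042) the control peak was centred at least 79.6% along the gene. Slc25a23 shared 2 places near its 3′ end (chromosome 17, 57043711 to 57044014 and 57044648 to 57045578), and Slc25a20 a second one inside the gene (chromosome 9, 108672419 to 108672546). Slc25a13, Slc25a28, Slc25a34 and Slc25a46 had peaks in both lists at different places.

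Carrier peaks lay mostly toward the 3′ end of the gene, as did peaks of all genes. In the control list 19 of 48 carrier peaks (39.6%) were centred in the last 10% of the gene, beside 30.4% of all placed peaks. In the case list it was 7 of 26 (26.9%), beside 30.4%. Peaks in the first 10% numbered 3 in the control list, at Slc25a20, Slc25a23 and Slc25a44. The case list had 4, at Slc25a20, Slc25a28, Slc25a34 and Slc25a44. These are 6.25% and 15.4% of carrier peaks, beside 7.43% and 6.50% of all placed peaks. Positions run over the whole gene with introns, and exons were not used here.

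**Figure D4:**
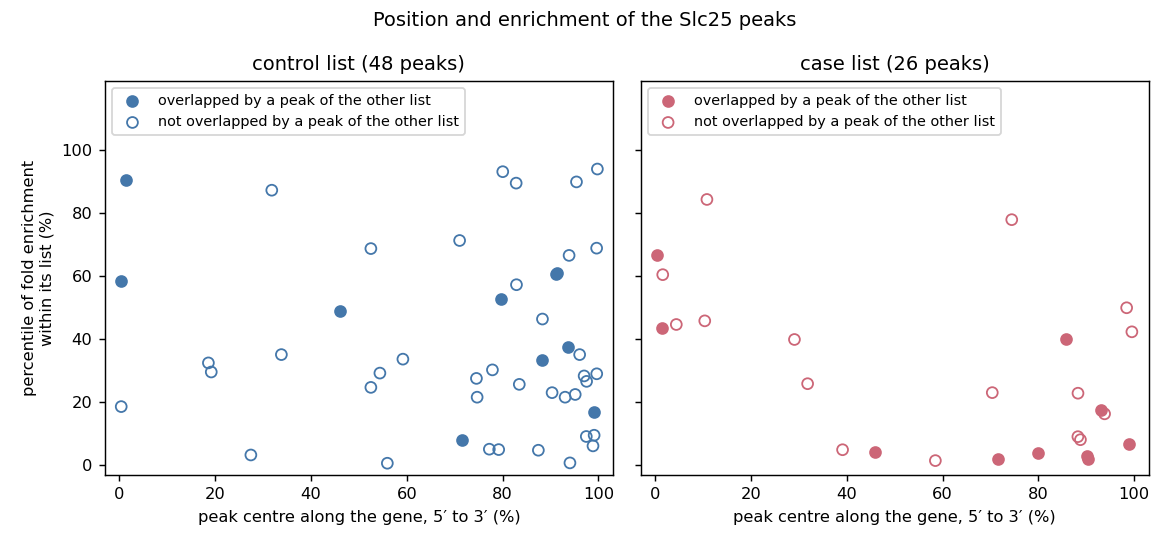
Centre of each carrier peak along its gene (0% is the 5′ end, 100% the 3′ end) against the percentile of its fold enrichment within its list, for the 48 control peaks and the 26 case peaks. Filled points are overlapped by a peak of the other list, 10 in each, and the median position is 82.85% in the control and 73.0% in the case panel.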

How the data were processed

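Input RNA and m6A-precipitated RNA of mouse liver were sequenced as 12 libraries in 4 groups of 3, per the labels. Build mm10 and the tools Cufflinks, Cuffdiff, HISAT2 2.0.4 and cutadapt 1.9.3 come from the submitters' processing notes, which give no roles. The authors deposited FPKM values and a count-like signal, which low values show to be whole multiples of a step. Dividing by that step (control 1.0854, case 0.927), taken from the commonest low value, gave fragments, of which 92.6% and 91.7% were whole within 0.02. Each deposited peak list holds a fold enrichment (a ratio) and, per the file headers, a false discovery rate, in percent by its values. Peak names begin with MACS; its settings and background are unknown from the labels and headers. A further 8 expression columns and 4 peak lists carry library numbers that match no label; their values were used in no step, so peaks come from the control and the case list.

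Mitochondrially encoded genes were left out, and genes with a mean of at least 1 FPKM were compared with a pseudocount of 1. Intervals are exact Poisson, exact binomial (Clopper-Pearson) and, for fragment ratios on the authors' scale (fragments times the step) or with equal fragment totals, derived from the latter. They cover counting error only, since PCR copies are not independent molecules. Alternatives were another pseudocount, other filters, 4 other scalings, and stricter peak and overlap limits. The steps were tested on simulated data. The members, gene lists and role groups were chosen with earlier results of these data known. The rule for named genes was that every member is counted, that compared members are given by both values in role order, with fragments and intervals for those past 2-fold and the most abundant, and that up to 4 of the largest differences of each list are named. Python 3.11.15, pandas 2.3.3, scipy 1.17.1 and matplotlib 3.10.9 were used. Values of 1 member are not reported here; it is counted in the totals.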

Additional observations from a re-analysis of the deposited data

How the results depend on the processing

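No paired analysis was possible because 1 library per genotype could be tied to a group. The members' median difference of 1.19 was positive in all 8 settings: 1.40 with a pseudocount of 0.1, 0.69 without the filter, 1.40 at a mean of at least 5 FPKM, 0.61 with FPKM at equal totals, 0.60 with quantile normalization, 0.79 with median centring and 0.67 with fragments in place of FPKM at equal totals. The 20 members higher became 6 with equal totals, 10 with quantile normalization, 10 with median centring and 8 with equal fragment totals, and the 2 lower became 0 at a mean of at least 5 FPKM, where both fall out. The median of all genes, 0.41 as deposited, was -0.15 with equal totals, 0.16 with quantile normalization and -0.18 with equal fragment totals. None of the 22 called members changed sign in a setting that kept it. Carrier peaks numbered 22 and 3 (control and case) at a fold enrichment of at least 20, beside 11457 and 6407 peaks in all. That cut is not the same limit in both lists, so its counts are not compared between them. Among the 5000 highest peaks of each list, 7 and 2 were carrier peaks. Limiting the false discovery rate to 15% left 48 and 19 carrier peaks, beside 17175 and 12913 peaks in all. With overlap of at least 50% of both peaks 7 places were shared. These are 14.6% of control and 26.9% of case carrier peaks, beside 27.3% and 27.1% over the whole lists. Under the 15% limit 7 were shared, or 14.6% and 36.8%, beside 23.5% and 31.2%. Depth limits members of few fragments most, as their intervals show.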

Other observations

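There are 4 pairs of carriers that lie within 100000 bases of each other. Slc25a47 (42.1 and 184 FPKM, control and case) lies 15245 bases from Slc25a29 (0.518 and 0.667 FPKM). Slc25a23 (12.0 and 30.8 FPKM) lies 120 bases from Slc25a41, and Slc25a5 (46.3 and 75.7 FPKM) 18343 bases from Slc25a43. Both of these neighbours were listed at 0 in both inputs. Slc25a24 (0.818 and 0.0930 FPKM) lies 6461 bases from Slc25a54, listed at 0 as well.

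FPKM and fragments gave different sizes for some members. On the authors' scale, the ratio of FPKM was 1.65 times the fragment ratio at Slc25a12, with a median of 0.999 over the 31 compared members. Slc25a25 was 2.85 times as high in the case input by FPKM and 3.56 times by fragments on the same scale, and Slc25a11 2.40 and 1.78 times. With equal fragment totals the fragment ratios were 2.14 and 1.07.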
